A study of Mus musculus with 2 samples.

Results

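The genes described here are 10 components of growth hormone and cytokine receptor signalling: the growth hormone receptor gene Ghr, the shared cytokine receptor subunit gene Il6st, the kinase gene Jak2, the transcription factor genes Stat5a, Stat5b and Stat3, and the feedback inhibitor genes Cish, Socs1, Socs2 and Socs3. They were chosen by name, among 19938 genes measured by a probe set annotated to 1 gene, and all 10 had a value. Where a gene had several probe sets, the brightest on average was used. RNA came from PDGFRα+ cells, sorted with a PE-coupled antibody from the stromal vascular fraction of inguinal white fat of female mice aged 6 weeks. One array held RNA of Sox9 PreASKO mice and the other that of Sox9 floxed mice, and both groups had received dox at postnatal day 1. The series' design text gives each array as a pool of 3 animals, so animals cannot be told apart, and the labels used here do not name the driver of the Sox9 deletion. With 1 array per group there is no replicate check, no error and no p-value for any difference below.

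Growth hormone binds its receptor on the cell surface and activates the receptor-bound kinase JAK2, which phosphorylates STAT5 proteins that then enter the nucleus and switch on target genes. Cytokines of the interleukin-6 family act in a parallel way through gp130, the product of Il6st, with STAT3 as a main transcription factor. CIS and the SOCS proteins are induced by this signalling and shut it off at the receptor or the kinase. In adipose tissue growth hormone is known for promoting lipolysis, and STAT5 is known as a promoter of fat cell differentiation.

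All values are the deposited RMA values on the log2 scale, and all differences are PreASKO minus floxed, so that a positive one means higher in PreASKO. None of the 10 genes reached 1.5-fold (0.585 on the log2 scale), the limit that the series' design text names, against 3.64% of all genes and 2.15% of the 11015 genes above background on both arrays. In single directions, 1.66% of all genes and 1.33% of those above background lay past the limit as higher in PreASKO, and 1.98% and 0.826% as lower in PreASKO. Of the 10, 5 were higher and 5 lower in PreASKO, as were 48.2% and 48.0% of all genes, with differences between -0.41 and 0.46. The median difference was -0.021 over the 10 genes and 0 over all genes. The median size of a difference, leaving out its sign, was 0.11 over the 10 genes and 0.16 over all genes. Over the 11015 genes above background on both arrays it was 0.14.

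**Figure D1:**
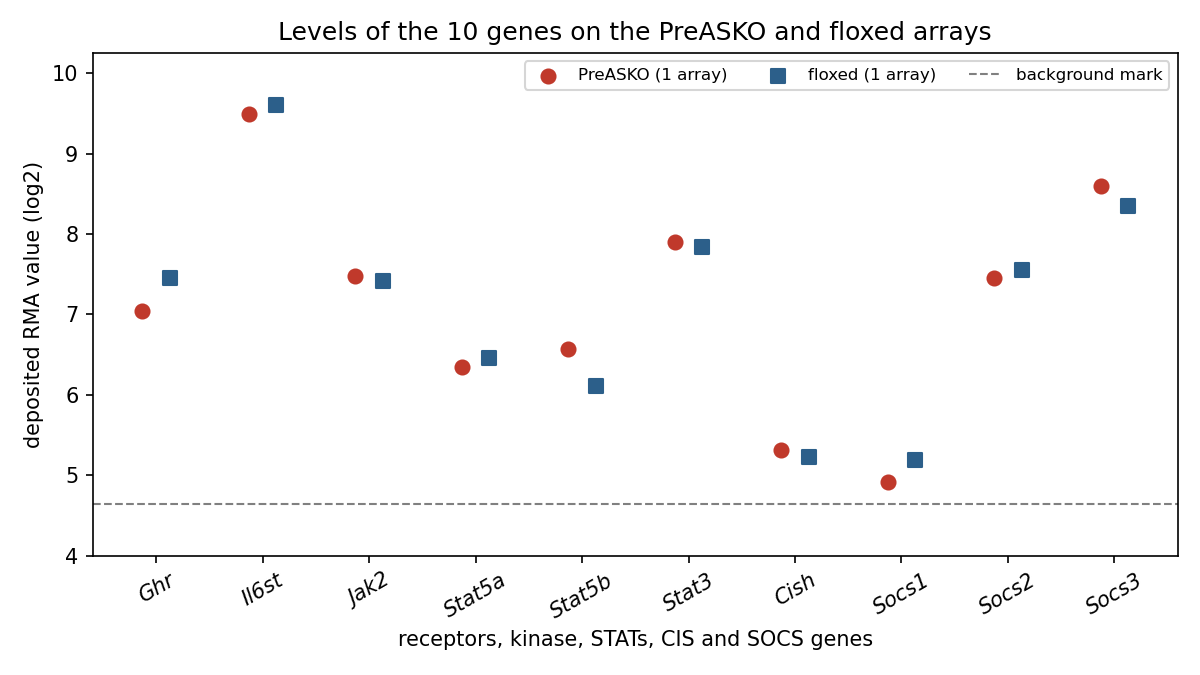
Deposited RMA value (vertical axis, log2) of each of the 10 genes on the PreASKO array (red circle) and the floxed array (blue square), 1 array per group without error bars. The dashed line is the background mark of 4.64. All 10 genes lay above the mark on both arrays, and the pairs of Stat5b and Ghr are the farthest apart, in opposite directions. Values of different genes come from different probes and have no common scale.

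Background was marked by the olfactory receptor genes, 1027 genes taken as silent in these cells, whose 95th percentile was 4.64 on the array where it was higher. All 10 genes were above this mark on both arrays. Cish and Socs1 did not reach the olfactory genes' 99th percentile (5.43) on either array, and the other 8 were above it on both. Differences of such dim probe sets are understated by RMA and are less certain.

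Stat5b and the growth hormone receptor gene held the largest differences among the 10, whereas that of Stat5a was smaller than the median size over all genes. Ghr was at 7.04 in PreASKO and 7.45 in floxed, a difference of -0.41 or 1.33-fold lower. The PreASKO array was thus the lower one for the receptor that starts the pathway. Stat5b, which encodes the STAT5 protein known as the main mediator of growth hormone's effect on body growth, was at 6.57 in PreASKO and 6.11 in floxed, a difference of 0.46 or 1.37-fold higher. Stat5a, whose protein is best known from prolactin signalling in the mammary gland, was at 6.34 in PreASKO and 6.46 in floxed, a difference of -0.12. The STAT5 genes therefore stood on opposite sides of 0, and their differences were 0.57 apart, a gap that a common scaling of an array cannot change. Each had 1 probe set, and since the genes are close copies, signal shared between their probes cannot be left out.

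A mark of 1.25-fold (0.322 on the log2 scale) was added after the values were seen, to place these differences among all genes. Stat5b was the 1 gene of the 10 beyond it in the positive direction, where 9.46% of all genes lay. Ghr was the 1 gene beyond it in the negative direction, where 9.86% of all genes lay. In both directions together the 2 genes stand against 19.3% of all genes and 15.0% of those above background. Among the 11015 genes above background on both arrays the shares were 8.99% in the positive and 5.96% in the negative direction. With 1 of 10 genes on either side, these counts were close to those shares.

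**Figure D2:**
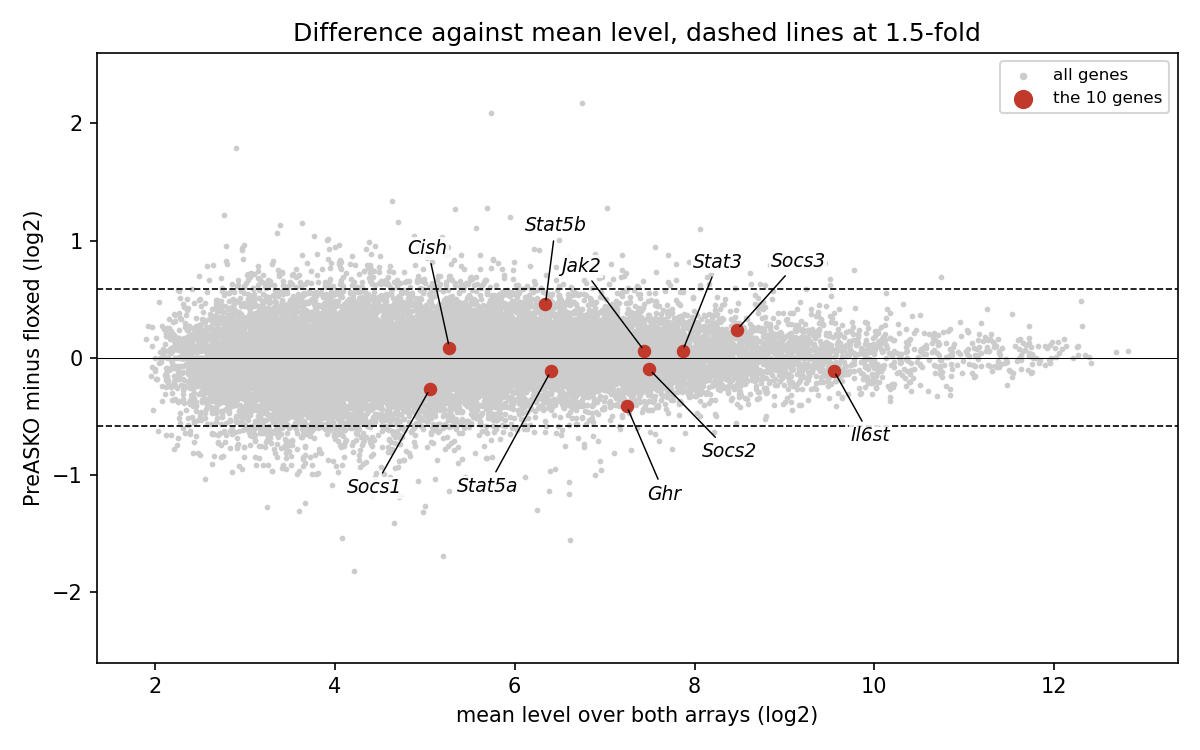
Difference PreASKO minus floxed (vertical axis, log2) against the mean level over both arrays (horizontal axis, log2) for 19938 genes in grey and the 10 genes in red. Dashed lines mark 1.5-fold. All 10 genes lie between the lines, with Stat5b at 0.46 and Ghr at -0.41 the nearest to them.

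The receptor subunit, the kinase and STAT3 differed little. Il6st was at 9.49 in PreASKO and 9.60 in floxed, a difference of -0.11. Jak2, the kinase shared by the growth hormone receptor and several cytokine receptors, was at 7.47 in PreASKO and 7.41 in floxed, a difference of 0.057. Stat3 was at 7.90 in PreASKO and 7.84 in floxed, a difference of 0.059. These 3 differences were smaller than the median size over all genes. In a gene table of assembly GRCm38.p6, Stat5b, Stat5a and Stat3 are direct neighbours in this order among the protein-coding genes of chromosome 11, and their differences were 0.46, -0.12 and 0.059.

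The feedback inhibitors differed in both directions. Cish, whose protein competes with STAT5 for docking sites on activated receptors, was at 5.32 in PreASKO and 5.23 in floxed, a difference of 0.086. Socs1, an inhibitor of JAK kinases best known for restraining interferon signalling, was at 4.92 in PreASKO and 5.19 in floxed, a difference of -0.27. The PreASKO level of Socs1 was only 0.28 above the background mark. Socs3, the inhibitor that binds gp130 and JAK and is induced by STAT3, was at 8.59 in PreASKO and 8.35 in floxed, a difference of 0.24 or 1.18-fold higher. A second Socs3 probe set was at 7.50 in PreASKO and 7.40 in floxed, a difference of 0.099, which has the same direction and a smaller size. Socs2, whose loss in mice causes gigantism through excess growth hormone signalling, was at 7.45 in PreASKO and 7.55 in floxed, a difference of -0.10. Its second probe set was at 6.32 in PreASKO and 6.18 in floxed, a difference of 0.14. The probe sets of Socs2 thus disagreed in direction, and no direction can be given for this gene. The differences of Socs3 and Socs1, of opposite sign, were 0.51 apart.

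The promoters below are shown because Cish and Socs3 are known feedback targets of STAT proteins, whereas Stat5b and Ghr had the largest differences of the 10. Each is the RefSeq window (GRCm38.p6) of 250 bases before to 50 bases after an annotated start, written 5′ to 3′ on the gene's strand, with matches to TTCNNNGAA in capitals. This core of the STAT binding motif reads alike on both strands. The windows are chr9:107296409-107296708 (plus strand) for Cish, chr11:117969317-117969616 (minus strand) for Socs3, chr11:100850532-100850831 (minus strand) for Stat5b and chr15:3583303-3583602 (minus strand) for Ghr.
Cish: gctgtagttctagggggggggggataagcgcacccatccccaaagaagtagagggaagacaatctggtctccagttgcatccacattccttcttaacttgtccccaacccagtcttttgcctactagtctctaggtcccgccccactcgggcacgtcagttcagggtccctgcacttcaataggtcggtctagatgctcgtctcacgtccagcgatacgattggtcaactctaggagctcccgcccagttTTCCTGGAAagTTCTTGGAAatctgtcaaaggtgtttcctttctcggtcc
Socs3: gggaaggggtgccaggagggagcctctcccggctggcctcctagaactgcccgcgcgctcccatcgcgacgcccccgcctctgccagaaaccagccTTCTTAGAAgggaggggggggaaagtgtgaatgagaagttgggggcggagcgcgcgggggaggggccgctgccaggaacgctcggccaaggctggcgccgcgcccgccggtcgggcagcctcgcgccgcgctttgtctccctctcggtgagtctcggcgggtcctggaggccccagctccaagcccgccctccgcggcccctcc
Stat5b: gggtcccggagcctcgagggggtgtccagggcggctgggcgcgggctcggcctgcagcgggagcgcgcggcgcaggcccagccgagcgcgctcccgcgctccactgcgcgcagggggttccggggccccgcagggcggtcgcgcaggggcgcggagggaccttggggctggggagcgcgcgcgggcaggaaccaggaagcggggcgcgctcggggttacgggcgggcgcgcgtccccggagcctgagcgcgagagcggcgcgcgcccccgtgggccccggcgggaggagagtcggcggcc
Ghr: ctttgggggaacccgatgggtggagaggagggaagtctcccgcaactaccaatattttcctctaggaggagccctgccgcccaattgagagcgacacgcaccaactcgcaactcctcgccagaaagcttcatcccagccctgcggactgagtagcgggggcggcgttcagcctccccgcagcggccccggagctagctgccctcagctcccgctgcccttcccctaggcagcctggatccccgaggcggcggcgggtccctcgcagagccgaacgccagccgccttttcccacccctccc

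Promoter windows were found for 9 of the 10 genes, 12 windows in all, and for none of Socs2. The motif was present in the windows of 2 of these 9 genes, against 9.55% of all 27025 genes with a window. Cish held TTCCTGGAA and TTCTTGGAA, which do not overlap, at positions 1 to 9 and 12 to 20 counted from the annotated start. Socs3 held TTCTTAGAA at positions -154 to -146. The window of Socs1, also a feedback inhibitor gene, held no match. Among all 32851 windows 8.30% held at least 1 match and 0.457% held 2 or more. A match is a description of the letters and not a measured binding site. Cish and Socs3 differed by 0.086 and 0.24 between the arrays, as given above.

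To place the 10 genes within the wider pathway, 7 further lists with 122 genes were described, of which 110 had a value. Of the rest, 2 had only probe sets shared with another gene and 10 had none annotated to them. Of the 110, 24 were below background on both arrays. The 1.5-fold limit was passed by 2 genes on the higher side and 1 on the lower side, together 2.73%, against 3.64% of all genes. Of the 110 genes 62 were higher and 47 lower in PreASKO. The median difference was 0.073 over the 110 genes and 0.031 over the 86 that were above background on at least 1 array, against 0 over all genes.

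Ligands were the dimmest of these lists, with 11 of 18 measured members below background on both arrays. Gh and Prl, the genes of growth hormone and prolactin, were at 4.27 and 3.66 in PreASKO and at 4.08 and 3.59 in floxed, all below background. None reached 1.5-fold in either direction, 11 were higher and 6 lower in PreASKO, and the median difference was 0.13. Over the 7 members above background the median was -0.15, so the list's median changed sign without its members below background. Il6, the cytokine that signals through gp130, was at 8.57 in PreASKO and 8.72 in floxed. Lif, a gp130 ligand, was at 5.92 in PreASKO and 6.29 in floxed, a difference of -0.37. Il13, a type 2 cytokine that signals through STAT6, was at 4.94 in PreASKO and 5.50 in floxed, a difference of -0.56. Its PreASKO value was below the olfactory genes' 99th percentile (5.43). In the positive direction Tslp, an epithelial and stromal cytokine, differed by 0.18 and Il15 by 0.10.

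Of the 19 measured receptors other than Ghr and Il6st, 14 were higher and 5 lower in PreASKO, with a median of 0.15, and of 0.14 over the 16 above background. Lifr, the partner of gp130 in binding LIF, was at 8.04 in PreASKO and 7.55 in floxed, a difference of 0.49. Other partners of gp130 had the same direction. Osmr, the oncostatin M receptor gene, was at 7.59 in PreASKO and 7.27 in floxed, and Il6ra, the gene of the interleukin-6 binding chain, was at 7.13 in PreASKO and 6.87 in floxed. These were named after their values were seen. Csf3r, the granulocyte colony stimulating factor receptor gene of myeloid cells, was at 5.12 in PreASKO and 4.68 in floxed, a difference of 0.44, close to background in floxed. In the negative direction Il13ra1 differed by -0.18 and Epor, the erythropoietin receptor gene, by -0.15. The list's 1 gene past 1.5-fold, Il7r, was below background on both arrays. Lepr, the leptin receptor gene, was also below background on both arrays (3.40 in PreASKO and 3.68 in floxed).

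Of the other kinases and STATs, 5 of 7 were measured, all 5 were higher in PreASKO and none by 1.5-fold, with a median of 0.073. Stat4, 1 of the 5, was below background on both arrays (3.26 in PreASKO and 3.08 in floxed), so its direction is not measured. Over the 4 above background the median was also 0.073. Tyk2, a JAK family kinase of interferon and interleukin receptors, was at 5.54 in PreASKO and 5.06 in floxed, a difference of 0.48. Its floxed value was below the olfactory genes' 99th percentile (5.43). Stat2, a transcription factor of the interferon response, differed by 0.073. Jak1, the kinase most used by gp130, was at 10.20 in PreASKO and 10.17 in floxed.

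Other SOCS genes and negative regulators were measured in all 20 cases, with 8 higher and 12 lower in PreASKO, none of them by 1.5-fold, and a median of -0.015. Socs5 was at 7.05 in PreASKO and 6.76 in floxed, a difference of 0.29. Elob, a subunit of the ubiquitin ligase that SOCS proteins recruit, differed by 0.29. Socs6 was at 5.52 in PreASKO and 6.05 in floxed, a difference of -0.53, but a second probe set differed by only -0.11. Its remaining probe set differed by 0.14 but was below background on both arrays (2.41 in PreASKO and 2.27 in floxed). Pias3, an inhibitor of STAT3, differed by -0.34. Ptpn11, the phosphatase SHP2 that binds activated receptors, was at 7.59 in PreASKO and 7.90 in floxed, and Adam17, the protease that sheds the growth hormone receptor, was at 8.21 in PreASKO and 8.47 in floxed.

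Of 12 measured adaptors and kinases downstream of the growth hormone receptor, 6 were higher and 6 lower in PreASKO, none by 1.5-fold, with a median of 0.016. Irs1, counted as higher, differed by 0.19 on the brighter of its probe sets and by -0.24 on the dimmer, so no direction can be given for it. Irs2, an insulin receptor substrate that JAK2 also phosphorylates, was at 7.17 in PreASKO and 6.77 in floxed, a difference of 0.41. Sh2b2, an adaptor of JAK2 and the insulin receptor, was at 5.11 in PreASKO and below background in floxed. Measured from the background mark it was at least 1.39-fold higher. Its PreASKO value was itself below the olfactory genes' 99th percentile (5.43), so this bound is less certain. In the negative direction the docking protein gene Gab1 differed by -0.22 and the kinase gene Akt1 by -0.21.

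Genes known as targets of growth hormone or STAT5 gave no 1.5-fold difference in either direction among 18 measured members. The median was 0.12 over all 18 members and -0.039 over the 12 above background. Igf1, the growth factor that mediates much of growth hormone's action, was at 9.38 in PreASKO and 9.40 in floxed. Bcl6, a repressor that STAT5 controls, was at 7.81 in PreASKO and 7.74 in floxed, and Pparg, the master regulator of fat cell formation, was at 7.88 in PreASKO and 7.95 in floxed. Cyp7b1, an oxysterol hydroxylase gene that responds to growth hormone in mouse liver, was at 5.22 in PreASKO and 4.82 in floxed, a difference of 0.41. Both of its values were below the olfactory genes' 99th percentile (5.43). Ccnd1, the cyclin D1 gene, differed by 0.31. In the negative direction the survival gene Bcl2l1 differed by -0.17 and the lipoprotein lipase gene Lpl by -0.16.

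Genes known to respond to cytokines and STAT3 were split, with 10 higher and 10 lower in PreASKO and a median of 0.0023. Bcl3, a nuclear IκB family protein gene, was at 7.28 in PreASKO and 6.60 in floxed, a difference of 0.68 or 1.60-fold higher. Saa3, an acute phase gene, was below background in PreASKO and at 5.002 in floxed. Measured from the background mark it was at least 1.28-fold lower, whereas its deposited values differed by -1.18. Its floxed value was itself below the olfactory genes' 99th percentile (5.43), so this bound is less certain. The protease inhibitor gene Timp1 differed by 0.28 and the hypoxia factor gene Hif1a by -0.29. Cebpd, a transcription factor of early fat cell differentiation that STAT3 induces, was at 8.71 in PreASKO and 8.72 in floxed.

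**Figure D3:**
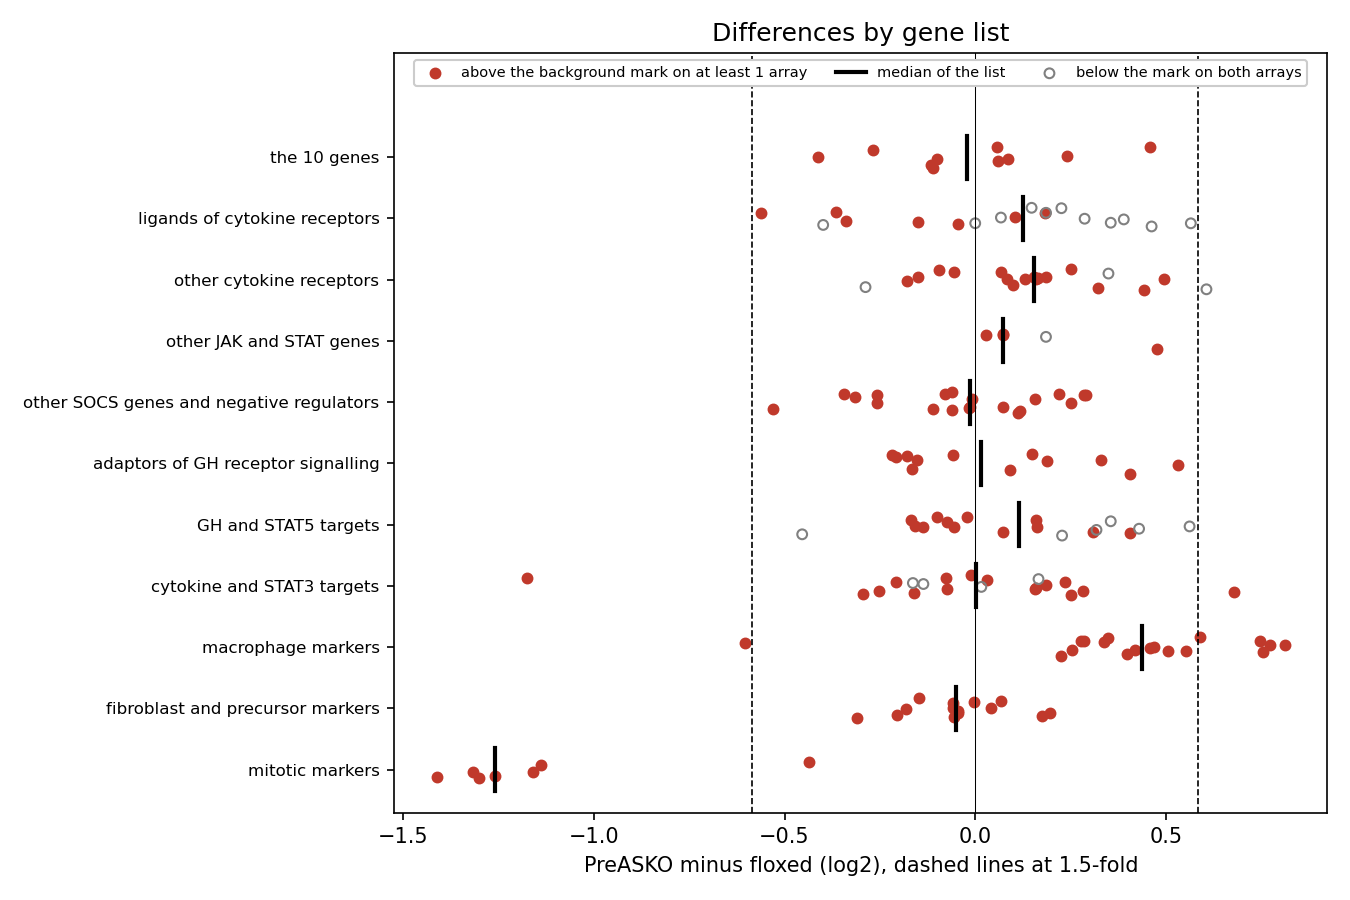
Difference PreASKO minus floxed (horizontal axis, log2) of each measured gene, by list (vertical axis). Red points were above the background mark on at least 1 array, open points were below it on both, black bars are list medians and dashed lines mark 1.5-fold. The 10 genes spread around 0 with a median of -0.021, and 17 of 18 macrophage markers lie to the right of 0 and all 7 mitotic markers to the left. Where 1 array was below background, as for 3 mitotic markers, the deposited difference is plotted and its size is not measured.

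Markers of cell types and states differed between the same arrays. Pdgfra, which encodes the protein used for sorting, had 9.55 in PreASKO and 9.86 in floxed, a difference of -0.31, and 4 of 14 fibroblast and precursor markers were higher and 10 lower, with a median of -0.050. Macrophage markers were higher in PreASKO in 17 of 18 cases, with a median of 0.44. Their mean level was 8.86 in PreASKO, over a range of 5.80 to 11.46, and 8.44 in floxed, over a range of 6.28 to 11.04. None of them was below background on both arrays. Among them Lyz2 differed by 0.42, Mrc1 by 0.22 and Ptprc by 0.47. Past 1.5-fold were H2-Ab1 (0.81) and Cd74 (0.75) of antigen presentation, Tyrobp (0.77), C1qa (0.75) and Fcer1g (0.59), and in the negative direction Cx3cr1 (-0.60). All 7 measured mitotic markers were lower in PreASKO, with Mki67 at 5.60 in PreASKO and 6.90 in floxed. Ccnb2 differed by -1.16, and Top2a by -1.14 on the brighter of its probe sets. The dimmer Top2a probe set differed by -0.044 but was below background on both arrays (3.17 in PreASKO and 3.22 in floxed). On the PreASKO array Plk1, Bub1b and Tpx2 did not reach background, so Plk1 was at least 1.66-fold, Bub1b at least 1.99-fold and Tpx2 at least 1.995-fold lower there. The floxed value of Plk1 was below the olfactory genes' 99th percentile (5.43), so its bound is less certain. The list's median was -0.996 with values below background raised to it. Many of the 10 genes are also expressed by macrophages, and the part of these cells in the differences of Stat5b, Socs3, Ghr and the cytokine receptors was not tested. In such bulk samples fewer cells of a type and less RNA per cell cannot be told apart.

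Markers of other cell types were mixed in level. Adipoq, of fat cells, was below background on both arrays, while Fabp4, which fat cells share with other cells, was at 10.75 in PreASKO and 10.60 in floxed. Epcam, of epithelium, was below background on both arrays, and the keratin gene Krt8 was at 6.31 in PreASKO and 5.93 in floxed. Pecam1, of endothelium, was below background in PreASKO and at 4.79 in floxed. The receptor gene Tek, however, was at 7.98 in PreASKO and 8.17 in floxed. Kdr differed by -0.69 and Cldn5 by 0.25, and of the 10 endothelial markers 5 were higher and 5 lower in PreASKO. Rgs5, of pericytes, was at 4.796 in PreASKO and 4.697 in floxed, while Acta2, of smooth muscle, was at 6.77 in PreASKO and 7.21 in floxed. Kcnj8 differed by -0.62 and Notch3 by 0.46, and of the 10 mural markers 4 were higher and 6 lower in PreASKO. Cd3e, of T cells, was at 5.84 in PreASKO and 4.96 in floxed, a difference of 0.88 or 1.84-fold higher. The other T cell genes Cd3g and Cd8a differed by 0.12 and 0.13. The floxed value of Cd3e and both values of Cd3g and Cd8a were below the olfactory genes' 99th percentile (5.43). Of the 8 measured lymphocyte markers 4 were higher and 4 lower in PreASKO, with a median of 0.014. Fabp4, Krt8, Tek, Acta2, Cldn5, Notch3, Cd3g and Cd8a were named after their values were seen. Below background on both arrays were 4 of 10 endothelial, 2 of 10 mural, 4 of 8 lymphocyte, 4 of 7 adipocyte and 6 of 8 epithelial markers. Over the others the medians were -0.080 for endothelial, -0.32 for mural, 0.13 for lymphocyte, 0.12 for adipocyte and 0.094 for epithelial markers. Immediate early and dissociation genes, to which Socs3 is often added, had a median of 0.090 over 16 members, with Fos at 11.13 in PreASKO and 11.11 in floxed. Sox9, the targeted gene, was at 4.97 in PreASKO and 5.25 in floxed, a difference of -0.27. Both Sox9 values were below the olfactory genes' 99th percentile (5.43), so this difference is less certain. It was not examined here whether the Sox9 probes fall inside the deleted part.

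**Figure D4:**
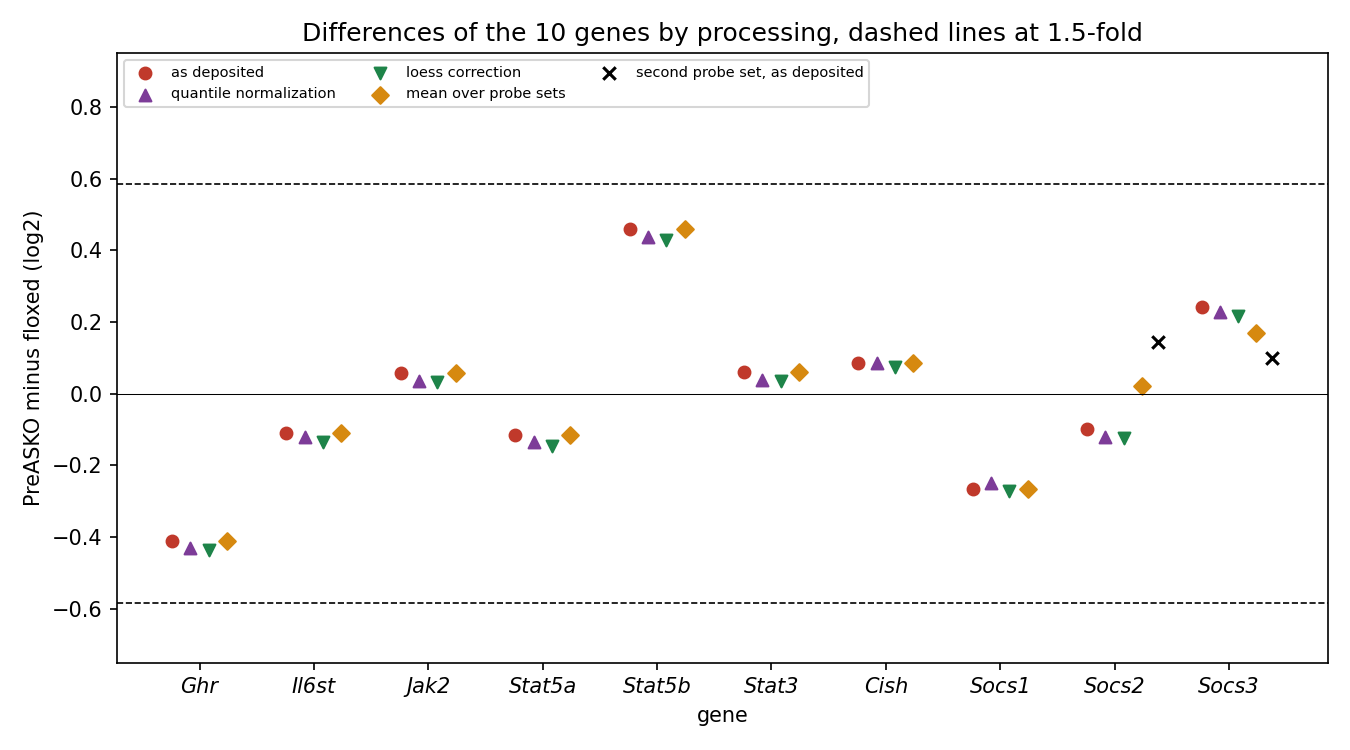
Difference PreASKO minus floxed (vertical axis, log2) of the 10 genes (horizontal axis) as deposited, after quantile normalization, after loess correction and as the mean over probe sets, with the second probe sets of Socs2 and Socs3 as crosses. Dashed lines mark 1.5-fold. Socs2 alone among the 10 crosses 0, at 0.022 with the mean over probe sets.

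Rescaling moved these values little. Under quantile normalization, loess correction and median centring Ghr lay between -0.44 and -0.41 and Stat5b between 0.43 and 0.46. Over all settings tried, 9 of the 10 genes kept their sign, and Socs2 did not.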

How the data were processed

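The labels' protocols describe collagenase digestion, staining and sorting for PDGFRα, and extraction of total RNA, while the molecule label names polyA RNA. The authors deposited log2 values for 35556 probe sets on 2 arrays, made with RMA per the submitters' processing notes. RMA corrects background, makes arrays alike and summarises probes, and it understates differences of dim genes. Its version is not given in the sources used here, and the log base was taken from the values (1.23 to 13.8). Array medians were 4.71 (PreASKO) and 4.73 (floxed).

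The platform annotation, which can be old, gave 1 gene for 21789 probe sets, several for 1621 and no entry for 12146. The 10 gene identifiers were all found in the RefSeq table. The probe set with the highest mean stood for a gene. Differences were taken without a test, since each group had 1 array, and the number of arrays limits their precision. Named were every member, the 2 most positive and 2 most negative genes above background per pathway list, every list gene past 1.5-fold and above background, and defining markers; others, named for their role, were picked with values in view. The members, lists and alternatives were chosen with earlier results of these data known. The alternatives were a level floor (5.18), raising values to background, a 2-fold limit, the mean over probe sets, and 3 rescalings (quantile, loess with span 0.3, median centring). Steps were tested on simulated data. Python 3.11.15, pandas 2.3.3, numpy 2.4.6, statsmodels 0.14.6 and matplotlib 3.10.9 were used.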

Additional observations from a re-analysis of the deposited data

How the results depend on the processing

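None of the 10 genes passed 1.5-fold in either direction after quantile normalization, loess correction or median centring. The mean over probe sets, which could change only Socs2 and Socs3, brought neither past it. A 2-fold limit, the level floor and raising values to background could add none, since none was past 1.5-fold as deposited. With a 1.25-fold limit, added after seeing the data, 1 was higher and 1 lower. Socs2 moved to 0.022 with the mean over its probe sets, and no other of the 10 moved by more than 0.1. The 331 higher and 394 lower genes of the whole table became 22 and 29 at 2-fold, 161 and 107 with the level floor, and 161 and 103 with values raised to background. The median of growth hormone and STAT5 targets became -0.039 with the level floor and 0 with values raised to background. That of ligands became -0.098 and 0 under the same settings. Both shifts follow from leaving out or levelling dim genes. The level floor (5.18) lies above the background mark (4.64), and among ligands it also left out Clcf1, which was at 4.87 in floxed. The other medians moved by at most 0.1, and some of those near 0 changed sign. That of the adaptors became -0.041 with the mean over probe sets and -0.059 with the level floor. Of the list genes, Ifng (0.61 and 0.59) and Wap (0.60 and 0.59), below background on both arrays, passed 1.5-fold after quantile normalization and loess correction. Il7r and Saa3 no longer passed it with values raised to background, and Bcl3 passed it under every setting but the 2-fold limit. No paired analysis was possible because there was only 1 array per group, which also leaves no replicate to omit. Socs1 and Cish lay nearest to background of the 10 genes.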
